A study of Arabidopsis thaliana with 4 samples.

Results

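GER1 (AT1G72610) and GER3 (AT5G20630) are Arabidopsis thaliana genes for germin-like proteins. They are the 2 loci followed here, of 8346 with reads in a table of mRNA 3′ ends, and they held 449 of its 89792 reads: 389 from GER1 and 60 from GER3. The loci were picked by name with earlier values of the same table in view, so their levels and tails are a description and no test was applied to them. The ends came from TAIL-seq, in which RNA 3′ ends are tagged by ligation and sequenced, so that each read gives the length of an A tract and whatever nucleotides follow it. Total RNA was taken from soil-grown seedlings aged 2 weeks, kept in 16 h light and 8 h darkness. The 4 libraries, 1 per genotype, were the urt1-1 T-DNA mutant (Salk_087647C, urt1 below) with 43391 reads, the xrn4-3 mutant (SALK_014209, xrn4 below) with 9797 reads, the urt1-1 xrn4-3 double mutant (urt1 xrn4) with 26300 reads, and wild type (WT) with 10304 reads. The Col0 ecotype is stated for WT only. No genotype was replicated, so nothing checks a difference between libraries beyond the counting of reads, which is all that the intervals cover. The table gives no molecular identifiers. In RNA from whole seedlings, fewer cells of a type and less RNA per cell cannot be told apart.

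Germins and germin-like proteins are secreted glycoproteins of the cupin superfamily that sit in the cell wall and apoplast. The germin of cereals is an oxalate oxidase, and the Arabidopsis proteins form a large family in which GER1 and GER3 are abundant members in leaves. GER3 mRNA is known to cycle with the circadian clock. URT1, a terminal uridylyltransferase, places uridines on oligoadenylated mRNA tails, and XRN4 is the cytoplasmic 5′-to-3′ exoribonuclease of plants. Uridylated tails are linked to mRNA turnover.

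In the RefSeq annotation of TAIR10.1, GER1 lies on chromosome 1 and GER3 on chromosome 5, both on the minus strand. Each has 1 transcript with 1 exon, so neither has an intron. The GER1 transcript has 931 nt with a coding part of 627 nt and a 3′ UTR of 188 nt, and the GER3 transcript has 1008 nt, 636 nt and 286 nt. The longest stretch of bases shared exactly by the GER1 and GER3 transcripts was 15 nt. Against the other family members the longest was 16 nt for GER1, with GLP6 (AT5G39100), and 20 nt for GER3, with AT1G74820. Runs of A are also encoded in the genes: the longest had 5 A in the GER1 3′ UTR and 7 A in the GER3 3′ UTR, and 5 and 3 runs had at least 4 A. The table lists tails of 4 to 30 A, and the share of its shortest tails that was encoded in the genome was not tested.

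The tails below are frequent ends of each gene and U-tailed ends with U only, to show what the reads look like. They are written 5′ to 3′ with the A tract in lower case, from its stated length, and the added nucleotides in capitals, with T for U as in the table.
GER1, urt1, 32 reads: aaaaaaaaaaaaaaaa
GER1, urt1, U-tailed, 2 reads: aaaaaaaaaaaaaaT
GER1, xrn4, 6 reads: aaaa
GER1, urt1 xrn4, 10 reads: aaaaaaaaaaaa
GER1, urt1 xrn4, U-tailed, 3 reads: aaaaaaaaaaaaaaaTT
GER1, WT, 5 reads: aaaaaaaaaaaaaaaaaaaaaa
GER1, WT, U-tailed, 3 reads: aaaaaaaaaaaT
GER3, urt1, 6 reads: aaaaaaaaaaaaaaaa
GER3, urt1, U-tailed, 1 read: aaaaaaaaaTTT
GER3, xrn4, U-tailed, 1 read: aaaaaaaaaaaaaaaaaaaaaT
GER3, urt1 xrn4, U-tailed, 4 reads: aaaaaTT
GER3, WT, 6 reads: aaaaaaaa
GER3, WT, 5 reads: aaaaaaaaaaaaaaa
U-tailed ends were not of 1 length in either gene. Those of GER1 ran from 4 A in xrn4, on a tail whose extension also held A, to 20 A in urt1, and those of GER3 from 4 A in urt1 to 21 A in xrn4.

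GER1 was among the most frequent short-tailed 3′ ends of every library. It had 232 reads in urt1, 18 in xrn4, 112 in urt1 xrn4 and 27 in WT. Per 1000000 reads of the library in the table (CPM), this was 5347 CPM in urt1 (95% Poisson interval 4681 to 6081), 1837 in xrn4 (1089 to 2904), 4259 in urt1 xrn4 (3506 to 5124) and 2620 in WT (1727 to 3812). Its rank by reads was 21 of 5489 genes in urt1, 58 of 2557 in xrn4, 23 of 4066 in urt1 xrn4 and 39 of 2702 in WT. Both libraries without URT1 had higher values than both libraries with it, but the intervals of neighbours in the order overlapped (urt1 and urt1 xrn4, urt1 xrn4 and WT, xrn4 and WT). Tails over 30 A are not in the table, so a level here is the share of short-tailed ends and not of mRNA.

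GER3 was rarer, with 26 reads in urt1, 3 in xrn4, 16 in urt1 xrn4 and 15 in WT. That was 599 CPM in urt1 (391 to 878), 306 in xrn4 (63.1 to 895), 608 in urt1 xrn4 (348 to 988) and 1456 in WT (815 to 2401). WT held the highest level, and its interval overlapped those of all 3 mutants. The order below it, urt1 xrn4, urt1 and xrn4, was not separated by the intervals.

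**Figure D1:**
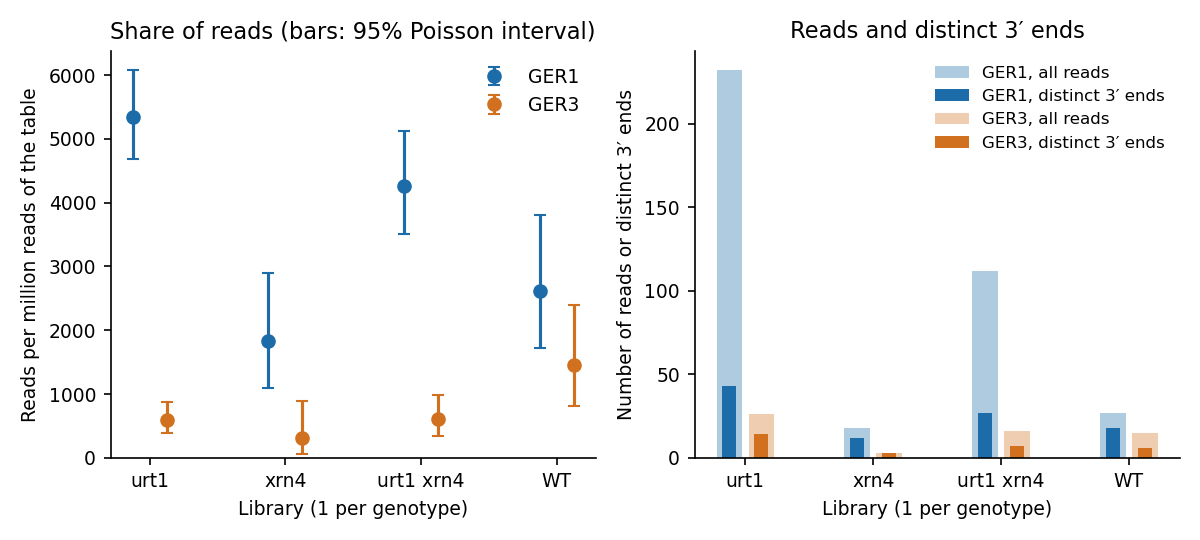
Left, GER1 and GER3 reads in each library in CPM, with 95% Poisson intervals; right, the number of reads (pale bars) and of distinct 3′ ends (dark bars). GER1 is highest in urt1 with 5347 CPM and GER3 is highest in WT with 1456 CPM, while the distinct ends of GER1 run only from 12 in xrn4 to 43 in urt1.

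Against WT, the urt1 share of GER1 was 2.01-fold higher (log2 ratio 1.01, 95% interval 0.45 to 1.66). Over the 440 genes whose reads in both libraries summed to at least 20, 28.2% were at least 2-fold higher and the median log2 ratio was 0.31. TMM scaling is set on genes with reads in both a library and the reference library. With it, 238 genes were at least 2-fold higher and 15 lower, against 124 and 55, and the median rose to 1.13. With median of ratios scaling they were 143 and 44, and the median was 0.46. When identical reads were counted once, 20 were at least 2-fold higher and 24 lower of 196 genes, and the median was -0.27. A ratio of this size was thus common: 122 of the 440 genes lay above GER1. Flow cell lanes were taken from the read names, as no label gives them, and each held all 4 libraries. By lane the GER1 log2 ratio was 0.84 and 1.13, so lane 1 alone was short of 2-fold. GER3 went the other way, with a share 2.46-fold lower in urt1 than in WT (log2 ratio -1.30, -2.25 to -0.26), where 12.5% of the genes were at least 2-fold lower. Of the 440 genes, 36 lay below GER3. It was -0.98 in lane 1 alone and -0.48 with TMM scaling, where it was no longer past 2-fold but kept its direction. With median of ratios scaling GER3 was at -1.15 and GER1 at 1.16, both past 2-fold.

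Counted by reads, the double mutant gave the same directions against WT. GER1 had a log2 ratio of 0.68 (0.08 to 1.36), short of 2-fold, with 33.0% of 315 genes at least 2-fold higher and a median of 0.50. GER3 was 2.40-fold lower in urt1 xrn4 than in WT (log2 ratio -1.26, -2.37 to -0.14), against 13.0% of the genes at least 2-fold lower, and -0.84 with TMM scaling. That scaling placed 147 genes at least 2-fold higher and 22 lower, against 104 and 41. With identical reads counted once, the log2 ratio was -0.42 for GER1, the opposite direction, and -0.79 for GER3, short of 2-fold, while 12 of 133 genes were at least 2-fold higher and 15 lower. These comparisons and the one of urt1 share the WT library.

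Against xrn4, GER1 was 2.27-fold higher in the double mutant (log2 ratio 1.18, 0.49 to 2.02), and 34.3% of 327 genes were at least 2-fold higher (112 higher and 60 lower; 133 and 36 with TMM scaling). In lane 1 alone it was 0.89, and with identical reads counted once it was -0.057, in the opposite direction, with 15 of 121 genes at least 2-fold higher and 13 lower. GER3 had 16 reads in urt1 xrn4 and 3 in xrn4 (log2 ratio 0.81, -0.81 to 3.41), too few together to enter the 327 genes. In xrn4 against WT, GER1 had a log2 ratio of -0.50 (-1.46 to 0.40), with 18.1% of 138 genes at least 2-fold lower. GER3 had 3 reads in xrn4 and 15 in WT there, a log2 ratio of -2.07 (-4.68 to -0.43) that rests on those 3 reads. In urt1 xrn4 against urt1 neither gene was past 2-fold (GER1 -0.32, -0.67 to 0.00; GER3 0.04, -0.97 to 0.97), while 28.1% of 598 genes were past it in either direction (86 higher and 82 lower; 45 and 140 with TMM scaling).

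The ratio of GER1 to GER3 reads within a library does not depend on how libraries are scaled. Each read is 1 end whatever the transcript's length, but whether ends of the 2 genes were recovered equally was not tested. There were 8.92 GER1 reads per GER3 read in urt1, 6.0 in xrn4, 7.0 in urt1 xrn4 and 1.8 in WT. The ratio was 4.96 times higher in urt1 than in WT (conditional 95% interval 2.15 to 11.1), 3.33 times in xrn4 (0.764 to 20.2) and 3.89 times in urt1 xrn4 (1.56 to 9.52). The intervals take each read as a separate molecule. The ratio was not planned in advance and reuses the reads of the comparisons above, with WT shared, so it is no separate evidence.

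Repeated reads bear on this directly. A distinct end is 1 combination of A length and added nucleotides. GER1 had 43 distinct ends in urt1, 12 in xrn4, 27 in urt1 xrn4 and 18 in WT, and GER3 had 14, 3, 7 and 6. Counted by distinct ends, the ratio of GER1 to GER3 was 3.07 in urt1, 4.0 in xrn4, 3.86 in urt1 xrn4 and 3.0 in WT, and the ratio became 1.02 for urt1 over WT (0.277 to 3.42) and 1.29 for urt1 xrn4 over WT (0.301 to 5.30). The log2 ratio of GER1 in urt1 over WT became -0.40 and that of GER3 -0.47, so neither was past 2-fold. Counting by ends also merges, by construction, separate molecules that share a tail: the 205 unmodified GER1 reads of urt1 fell on 23 distinct ends, against 8 for the 14 of WT. Whether the repeats were copies of 1 molecule was not tested.

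U extensions were found on 20 of the 389 GER1 reads and 8 of the 60 GER3 reads. The next comparisons describe how these differed between the libraries with and without URT1 and XRN4. For GER1 the uridylated share was 3.45% in urt1 (8 of 232; exact Clopper-Pearson 95% interval 1.5 to 6.68), 11.1% in xrn4 (2 of 18; 1.38 to 34.7), 5.36% in urt1 xrn4 (6 of 112; 1.99 to 11.3) and 14.8% in WT (4 of 27; 4.19 to 33.7). The 2 libraries without URT1 had the lower shares, and the 4 intervals overlapped.

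The GER1 share differed by -11.4 points in urt1 against WT (Newcombe 95% interval -29.1 to -1.91). Over the 58 genes that had 20 or more tails in both libraries, 55.2% were at least 10 points lower and the median difference was -11.3 points, so GER1 lay at the middle of these genes. In urt1 xrn4 against WT it differed by -9.46 points (-27.4 to 1.19), where 45.3% of 53 genes were at least 10 points lower and the median was -8.21. Between urt1 xrn4 and urt1 it differed by 1.91 points (-2.40 to 7.99), with 24.6% of 203 genes past 10 points in either direction. With 18 tails in xrn4, GER1 differed by -5.75 points in urt1 xrn4 against xrn4 (-27.6 to 4.16) and by -3.70 in xrn4 against WT (-23.1 to 19.7), neither beyond counting error.

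With identical reads counted once, the GER1 share was 16.3% in urt1, 16.7% in xrn4, 14.8% in urt1 xrn4 and 11.1% in WT. The lower share without URT1 was not seen by that counting, which leaves 43, 12, 27 and 18 distinct ends. Merging by itself raises the share where unmodified reads are many. In urt1 the 205 unmodified GER1 reads fell on 23 ends and the 8 U-tailed reads on 7, against 14 on 8 and 4 on 2 in WT. Counting once therefore cannot decide whether the share was lower. Over the 23 genes with 20 or more such ends in urt1 and WT, the median difference was then 0.52 points, where it was -11.3 points over the 58 genes counted by reads. In WT, 3 of the 4 U-tailed GER1 reads were the same end of 11 A and 1 U.

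Set against the reads of all other genes, GER1 had a lower uridylated share in each of the 4 libraries, within counting error in WT. The other genes had 6.89% uridylated tails in urt1, 40.3% in xrn4, 13.4% in urt1 xrn4 and 31.8% in WT. The difference was -3.44 points in urt1 (-5.15 to -0.228), -29.2 in xrn4 (-37.2 to -7.44), -8.04 in urt1 xrn4 (-10.95 to -2.19) and -17.0 in WT (-25.9 to 0.695). Set against single genes with 20 tails or more, GER1 was near the middle: its share exceeded that of 156 of 352 genes in urt1, 117 of 236 in urt1 xrn4 and 26 of 58 in WT. The medians over those genes were 3.85%, 5.37% and 17.8%.

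GER3 had another distribution. Its uridylated share was 7.69% in urt1 (2 of 26; 0.946 to 25.1), 33.3% in xrn4 (1 of 3; 0.840 to 90.6) and 31.2% in urt1 xrn4 (5 of 16; 11.02 to 58.7). No WT read was uridylated (0 of 15; exact interval 0 to 21.8%). The share in urt1 xrn4 was 31.2 points above WT (4.65 to 55.6) and 23.6 points above urt1 (-0.159 to 48.5). Of 53 genes, 3 were at least 10 points higher and 24 lower in urt1 xrn4 against WT. Against urt1, 42 of 203 genes were higher and 8 lower by that size. With 16 reads in urt1 xrn4 and 15 in WT, GER3 had too few tails to be one of these genes. Of the 5 U-tailed reads of the double mutant, 4 were the same end of 5 A and 2 U, so the 5 reads were 2 distinct ends. Of these 5 reads, 1 came from lane 1 and 4 from lane 2, and the share was 28.6% with identical reads counted once (2 of 7 ends). Among tails of 10 A or more the difference from WT was 12.5 points.

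Within a library the genes could be set against each other. The uridylated share of GER1 minus that of GER3 was -25.9 points in urt1 xrn4 (-50.4 to -7.84). Counted by distinct ends these were 14.8% for GER1 (4 of 27 ends) and 28.6% for GER3 (2 of 7 ends). The differences in urt1 (-4.24, -20.8 to 2.172), in xrn4 (-22.2, -68.8 to 12.6) and in WT (14.8, -7.43 to 32.5) were within counting error.

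**Figure D2:**
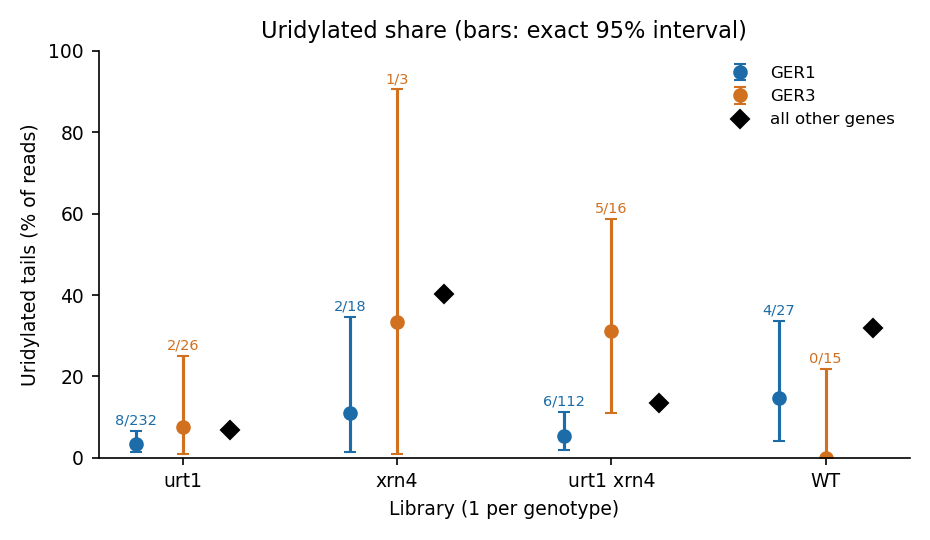
Uridylated tails as a percentage of reads in each library for GER1, GER3 (points with exact 95% intervals, and the number of uridylated tails over all tails) and all other genes together (diamonds). GER1 lies under the other genes in all 4 libraries, and GER3 has 5 of 16 in urt1 xrn4 and 0 of 15 in WT.

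Of the 20 U extensions of GER1, 15 held 1 U, alone or with A (75.0%; exact interval 50.9 to 91.3), 4 held 2 and 1 held 3. A lone U made up 10 of the 20. In urt1, 7 of 8 held 1 U, and 4 of the 8 were mixed with A. Both extensions in xrn4 were mixed with A, with 1 U each. In urt1 xrn4, 6 of 6 were made of U only, with 2 of 1 U, 3 of 2 U and 1 of 3 U. All 4 extensions in WT were 1 U. GER3 extensions were made of U only in 8 of 8 cases, of which 3 held 1 U, 4 held 2 and 1 held 3. The order in which the table writes mixed extensions is not stated, so these are given by composition.

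G and C extensions, the other 3′ additions the table lists, made up a larger share of GER1 reads in WT than in urt1 and urt1 xrn4. In urt1 GER1 had 13 G and 6 C extensions on 232 reads (5.60% and 2.59%), close to the 5.94% and 2.05% of other genes. In xrn4 there were 2 of each on 18 reads, 11.1% each (exact interval 1.38 to 34.7), while other genes had 5.59% G and 3.25% C. In urt1 xrn4 there was no G on 112 reads (exact interval 0 to 3.24%), and there were 2 C. In WT, G was found on 5 of 27 reads and C on 4. That is 18.5% (6.30 to 38.1) and 14.8% (4.19 to 33.7) of reads, while other genes had 4.89% and 2.37% there. Over distinct ends, the G share of GER1 was 20.9% in urt1 and 22.2% in WT, and its C share was 9.30% in urt1 and 22.2% in WT. GER3 had neither in the mutants, and 1 G and 1 C among 15 WT reads.

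A tracts of GER1 had medians of 16 or 17 nt in urt1, urt1 xrn4 and WT and were shorter on average in xrn4. The WT reads gathered on either side of their median, with 6 of 27 at 11 A and 5 unmodified reads at 22 A. Mean A length of GER1 was 15.9 ± 4.44 nt in urt1 (SD over 232 reads), 11.1 ± 7.74 nt in xrn4 (18 reads), 17.0 ± 5.94 nt in urt1 xrn4 (112 reads) and 15.6 ± 5.62 nt in WT (27 reads). The lowest, median and highest A lengths were 4, 16 and 28 in urt1, 4, 12.5 and 28 in xrn4, 4, 17 and 30 in urt1 xrn4, and 4, 16 and 23 in WT. The urt1, urt1 xrn4 and WT distributions overlapped over most of their range.

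The xrn4 library held a group of very short GER1 tails. In xrn4, 8 of 18 GER1 reads had 4 A, while 4 of 232 had it in urt1, 6 of 112 in urt1 xrn4 and 2 of 27 in WT. Among reads of other genes 7.39% had 4 A in xrn4 and 4.86% in WT. Over all tails, the mean A length of GER1 differed by -4.52 nt in xrn4 against WT (95% interval -8.67 to -0.36). In urt1 xrn4 against xrn4 it differed by 5.93 nt (2.19 to 9.67). Of 34 genes, 16 were at least 2 nt shorter and 1 longer in xrn4 against WT, with a median of -1.86 nt. In urt1 xrn4 against xrn4, 11 of 47 genes were at least 2 nt longer and 3 shorter, with a median of -0.29 nt. GER1, with 18 reads in xrn4, had too few tails to be one of these genes. With tails of 5 A or more, chosen after the data were examined, the GER1 differences were 0.24 nt and 0.98 nt, in the same order. The 8 xrn4 reads with 4 A were 3 distinct ends, 6 of the reads being unmodified. Over distinct ends of all lengths, the differences were -1.14 nt in xrn4 against WT and 3.53 nt in urt1 xrn4 against xrn4.

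Mean A length of GER1 was 0.25 nt longer in urt1 than in WT (95% interval -1.94 to 2.44). There, 22.4% of 58 genes differed by at least 2 nt in either direction. In urt1 xrn4 it was 1.42 nt longer than in WT (-0.97 to 3.80), short of 2 nt. Of 53 genes, 9.43% were at least 2 nt longer there. Their median difference was -1.60 nt, with 6 of the 53 above GER1. Between urt1 xrn4 and urt1 the GER1 mean differed by 1.17 nt (-0.07 to 2.40), with 32.0% of 203 genes past 2 nt. Each of these intervals took in both directions. With unmodified tails only, the differences from WT turned to -1.55 nt in urt1 and -0.24 nt in urt1 xrn4.

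GER3 tails had their highest mean in urt1. They measured 16.3 ± 5.24 nt in urt1 (26 reads), 14.0 ± 6.24 nt in xrn4 (3 reads), 9.25 ± 4.34 nt in urt1 xrn4 (16 reads) and 10.8 ± 3.86 nt in WT (15 reads). The lowest, median and highest were 4, 16 and 26 A in urt1, 5, 8.5 and 16 A in urt1 xrn4, and 4, 8 and 15 A in WT. The 3 xrn4 reads had 9, 12 and 21 A. The mean was 5.51 nt longer in urt1 than in WT and differed by -7.06 nt in urt1 xrn4 against urt1. None of the 58 genes with enough tails in urt1 and WT had as large an increase, but GER3, with 15 WT reads, is not one of them. Of the WT reads, 7 had 8 A and 6 had 15 A, and the 15 reads were 6 distinct ends. Over distinct ends the difference between urt1 and WT was 5.67 nt.

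Within the same library, unmodified GER1 and GER3 tails averaged 16.0 and 17.1 A in urt1, 17.3 and 10.6 A in urt1 xrn4, and 17.6 and 10.7 A in WT. GER3 was thus the shorter in the double mutant and in WT and not in urt1. Other genes had unmodified means of 15.4 A in urt1, 15.2 A in urt1 xrn4 and 17.2 A in WT.

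**Figure D3:**
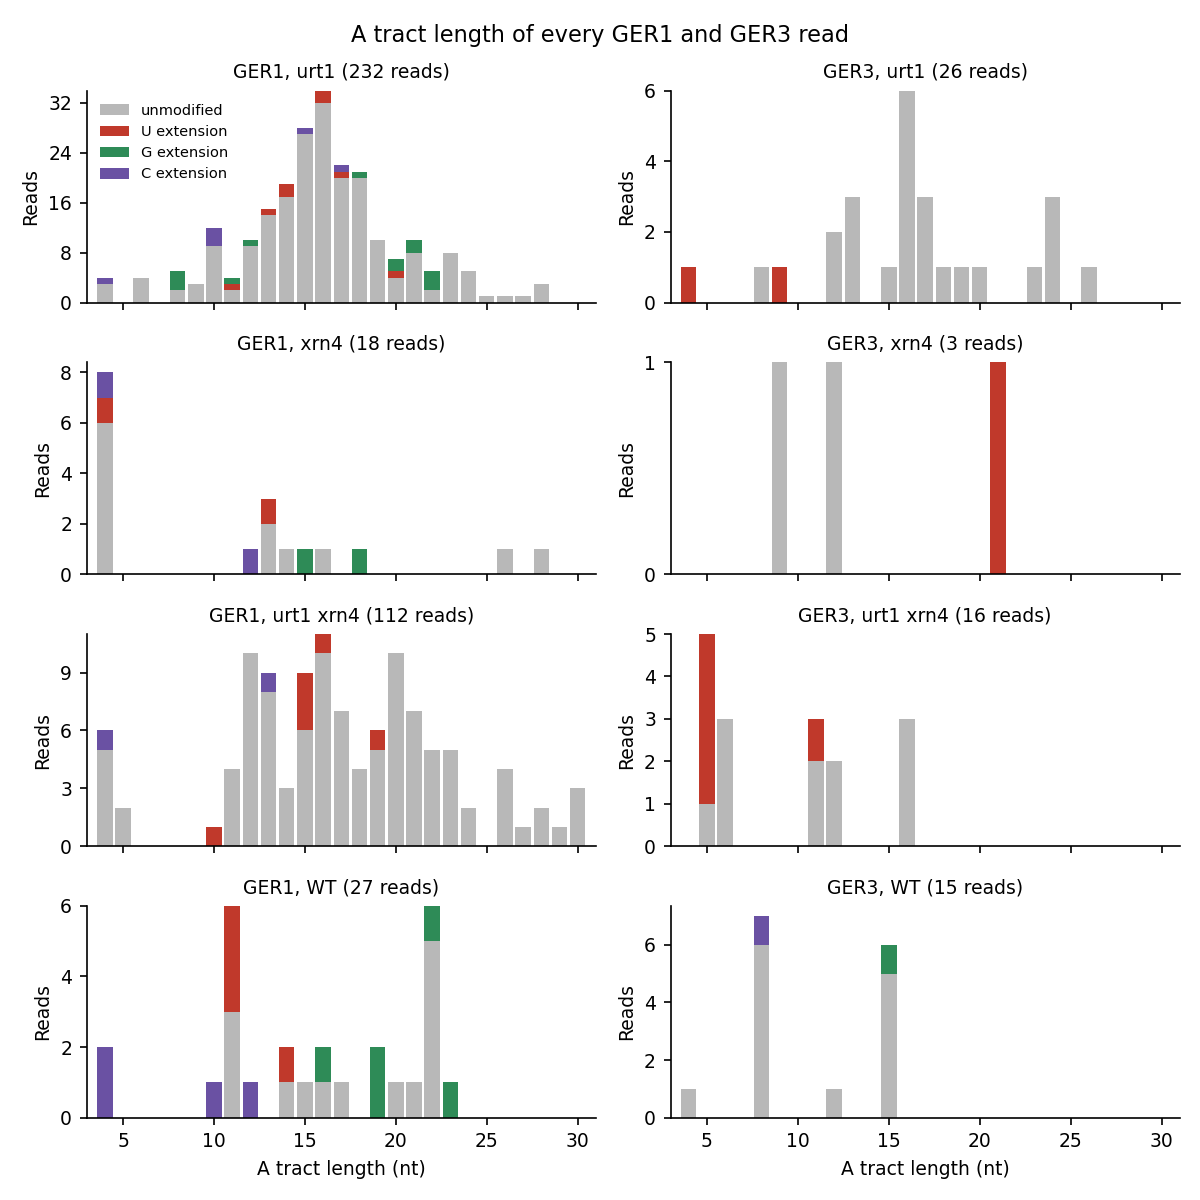
Number of reads at each A tract length (nt) for GER1 (left) and GER3 (right) in the 4 libraries, coloured by the 3′ addition; the vertical scales differ. GER1 reads centre near 16 A in urt1 while 8 of 18 have 4 A in xrn4, and WT reads of GER3 fall at 4 lengths with 7 reads at 8 A and 6 at 15 A.

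Uridylated tails were shorter than unmodified ones in most genes with 5 or more tails of each kind. These were 83 of 90 genes in urt1, 52 of 59 in xrn4, 104 of 120 in urt1 xrn4 and 53 of 63 in WT. Both GER genes were set against this. In urt1, uridylated GER1 tails averaged 15.1 A and unmodified ones 16.0 A, a difference of -0.89 nt, against a median of -4.00 nt over the 90 genes with 5 or more tails of each kind. In urt1 xrn4 the means were 15 and 17.3 A (-2.33 nt; median of 120 genes -3.69). In xrn4 they were 8.50 and 11.2 A, from 2 and 12 reads. In WT they were 11.8 and 17.6 A (-5.82 nt, from 4 uridylated and 14 unmodified reads). GER3 in urt1 xrn4 had uridylated tails of 6.2 A and unmodified ones of 10.6 A (-4.44 nt, from 5 and 11 reads), close to the median of that library. In urt1 its 2 uridylated tails had 4 and 9 A, below the unmodified mean of 17.1 A. In xrn4 the order was the other way, with 21 A in its 1 uridylated tail and a mean of 10.5 A in 2 unmodified ones.

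Few other genes of the family gave reads. Of 33 germin-like genes listed, 4 had any read, and GER1 held 85.5% of their 455 reads. GL22 (AT1G02335, also called PDGLP2, a plasmodesmal germin-like protein) had 2 reads, both in urt1 xrn4, and AT3G10080 had 2 in xrn4 and 2 in urt1 xrn4, of which 2 were uridylated. The other 29 had none. Taking no read to allow up to 3, this leaves up to 69.1 CPM in urt1, 306 in xrn4, 114 in urt1 xrn4 and 291 in WT for each gene. The clock genes listed, a set chosen because GER3 mRNA cycles, gave 9 reads over 4 of 12 members, too few to place the libraries in the day: CCA1 (AT2G46830) had 2 in urt1 and 3 in xrn4, LHY (AT1G01060) 1 in urt1, GRP7 (AT2G21660) 1 in urt1 and CCR1 (AT4G39260, also GRP8) 2 in urt1. The sources used here do not state a time of harvest, and its part in the GER3 levels was not tested. URT1 (AT2G45620), HESO1 (AT2G39740, another uridylyltransferase) and XRN4 (AT1G54490) had no read, so the reads cannot check the genotype labels through them. The leaf markers RBCS1A, CAB1 and RCA had 2477 reads in all, while the 4 root and 2 seed markers had none.

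The genes most like GER1 in their pattern of log2 CPM over the 4 libraries, by Euclidean distance after centring, were sought among 248 genes with at least 50 reads in all and 1 or more in each library. They were ERD15 (AT2G41430, distance 0.152), CAM3 (AT3G56800, a calmodulin), AT2G31610, RPL27AB (AT1G23290, a ribosomal protein) and AT5G27700. The median distance was 1.49. ERD15 had 691 CPM in urt1, 204 in xrn4, 608 in urt1 xrn4 and 291 in WT, a lower level than GER1 with the same order of libraries, from 2 reads in xrn4 and 3 in WT. For GER3 they were LHCB2.3 (AT3G27690, distance 0.488), a light-harvesting protein, AT3G18060, EXO70H7 (AT5G59730), AT1G70600 and RBP47A (AT1G49600). The median distance from GER3 was 1.86. LHCB2.3 had 761 CPM in urt1, 306 in xrn4, 951 in urt1 xrn4 and 1553 in WT, with 3 reads in xrn4. EXO70H7 had 2 reads in xrn4 and RBP47A had 3. The GER3 pattern itself rests on 3 reads in xrn4.

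In uridylated share the gene nearest to GER1, among the 34 that had 20 tails or more in all 4 libraries, was RBCS1A (AT1G67090), a Rubisco small subunit. It had 3.43% in urt1, 9.27% in xrn4, 3.66% in urt1 xrn4 and 8.80% in WT, at a summed difference of 9.57 points where the median gene was 42.0 points away. RBCS3B (AT5G38410), DRT112 (AT1G20340, plastocyanin), AT3G49910 and AT3G09200 followed. For GER3 they were SHM4 (AT4G13930), AT4G05070, CAB3 (AT1G29910), CAB2 (AT1G29920) and LAP2 (AT4G30920), from 29.1 to 40.3 points away, and that order rests on the 3 GER3 reads of xrn4. A likeness over 4 libraries is a description.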

How the data were processed

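The deposited table holds a line for each TAIL-seq read. Its columns, per the file headers, are genotype, A tract length in nt, added nucleotides, their class and the locus. Each line also has a read name, and the lane was taken from a field of it. The submitters' processing notes name bedtools 2.17.5, Bowtie2, TopHat2 2.0.9, CASAVA 1.8.2 and the build TAIR10. How reads were filtered and tails called is not stated in the sources used here. The double mutant's name in the table (UX) was read as its initials. Totals per library count tails of 4 to 30 A and are not full depth.

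Both genes and all gene lists were chosen with earlier results of these data known. Reads were scaled to the table's total per library, with 0.5 added before log2 ratios and exact conditional intervals. A difference was called past its size at 2-fold, 10 points or 2 nt. Differences in tails were formed for GER1 and GER3 with at least 10 reads in both libraries. Named genes were the 2 members, the tail enzymes, listed family and clock genes with reads, and the 5 nearest genes per pattern. Names came from RefSeq (TAIR10.1; 8310 of 8346 loci matched). Steps were tested on simulated reads and ran with scipy 1.17.1, pandas 2.3.3, numpy 2.4.6 and matplotlib 3.10.9 under Python 3.11.15. Alternatives were counting identical reads once, TMM and median of ratios scaling, no added amount, other minimums, length limits, each of the 2 lanes and other length summaries.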

Additional observations from a re-analysis of the deposited data

Results flagged for a closer look

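Counted by reads, loss of URT1 went with opposite directions of the GER3 share in the presence and absence of XRN4. The log2 ratio was -1.30 in urt1 over WT (-2.25 to -0.26) and 0.81 in urt1 xrn4 over xrn4 (-0.81 to 3.41). With identical reads counted once they were -0.47 and -0.095, in the same direction. The difference between these was not tested, and the xrn4 library held 3 GER3 reads.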

How the results depend on the processing

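Of 242 values recomputed under an alternative, 229 stayed inside the interval of the value reported or equalled it. This is a weak check where few reads make the interval wide, and some values inside it changed sign. The GER1 uridylated share in xrn4 against WT went from -3.70 points to 5.56 with identical reads counted once. With identical reads counted once, the log2 ratio of GER1 turned to -0.40 in urt1 over WT, -0.42 in urt1 xrn4 over WT and -0.057 in urt1 xrn4 over xrn4. The difference in its uridylated share turned to 5.17 points in urt1 and 3.70 points in urt1 xrn4, both against WT. The GER1 to GER3 ratio became 1.02 for urt1 and 1.29 for urt1 xrn4, both over WT. Merging equal tails lowers the number of reads most where a gene is deeply read. TMM scaling moved GER1 to 1.82 in urt1 over WT and -0.72 in urt1 xrn4 over urt1, and GER3 to -0.48 in urt1 over WT. Median of ratios scaling gave 1.16 for GER1 and -1.15 for GER3 in urt1 over WT. Without tails of 4 A, the difference in mean A length of GER1 was 0.24 nt in xrn4 against WT and 0.98 nt in urt1 xrn4 against xrn4. Uridylated minus unmodified GER1 tails measured 1.11 nt in urt1 with the added nucleotides included and -5.42 nt in urt1 xrn4 in lane 2; in each case the cause was not tested. Counts over all genes were mostly lower where fewer genes were tested. With identical reads counted once, and with a minimum of 50 reads, the genes past 2-fold were 44 of 196 and 48 of 152 in urt1 over WT (179 of 440 as reported), 9 of 63 and 2 of 36 in xrn4 over WT (51 of 138), 27 of 133 and 31 of 92 in urt1 xrn4 over WT (145 of 315), 28 of 121 and 35 of 86 over xrn4 (172 of 327), and 26 of 304 and 41 of 220 over urt1 (168 of 598). For each lane alone they were 59 of 195 and 74 of 206, 11 of 50 and 7 of 52, 46 of 125 and 55 of 129, 50 of 117 and 58 of 135, and 59 of 282 and 63 of 288, in the same order of comparisons. Genes past 10 points in uridylated share, counted once and with a minimum of 50 tails, were 8 of 23 and 7 of 16 in urt1 over WT (32 of 58 as reported), 12 of 23 and 7 of 16 in urt1 xrn4 over WT (27 of 53), and 18 of 60 and 7 of 58 over urt1 (50 of 203). Genes past 2 nt in mean A length were 7 of 23 and 3 of 16 in urt1 over WT (13 of 58, and 22 of 58 by medians), 6 of 23 and 6 of 16 in urt1 xrn4 over WT (26 of 53), and 14 of 60 and 11 of 58 over urt1 (65 of 203, and 40 of 159 with unmodified tails only). The difference in A length of GER3 in urt1 over WT ran from 4.57 nt (means, lane 1 alone) to 8.00 nt (medians) over its alternatives. No paired analysis was possible because each genotype has 1 library. Depth limits GER3 most, with 3 reads in xrn4.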
